A study of Mus musculus with 12 samples.

Results

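Endothelial cells line blood vessels, and 10 genes that mark them were followed here in forelimbs of mouse embryos: Kdr, Flt1, Tek, Tie1, Eng, Cdh5, Pecam1, Esam, Cldn5 and Emcn. The genes were taken by symbol from a fixed list of names, which was drawn up with earlier results of these data known. Each matched 1 row of the forelimb count table, which held 51826 gene identifiers, 99.6% of them with a mouse symbol. The libraries came from forelimbs at embryonic day E12.5, either wild type (WT, n = 2) or Prx-cKO (n = 2), in which Impdh2, an enzyme of guanine nucleotide synthesis, had been knocked out specifically in progenitors of the limb mesenchyme, per the series' design text. The deletion was thus not aimed at endothelial cells, which reach the data as part of the RNA of whole forelimbs. The labels do not give the Cre strain, the floxed allele, the genotype of the WT embryos beyond WT, or whether 1 embryo or a pool went into a library. Nothing in them says that replicates were separate embryos. By Xist and Ddx3y counts, however, the 2 libraries of each genotype were of opposite sex, so they were not repeats of the same embryo. P-values measure the spread between these libraries, which includes the difference of sex. A second set of 8 libraries came from bone marrow-derived osteoclast cultures of WT and LysM-cKO mice, in which Impdh2 was deleted in the myeloid lineage. Their titles, R40D3 and R0D3, are not spelled out in the labels and are used as names.

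Vessels form when vascular endothelial growth factor (VEGF), released by surrounding tissue, binds the receptor tyrosine kinase Kdr on endothelial cells, while the related receptor Flt1 binds the same ligand and serves largely as a trap for it. Angiopoietins act through the receptor Tek, with Tie1 as its partner, to stabilise vessels, and Eng (endoglin) is a co-receptor for ligands of the bone morphogenetic protein (BMP) family. Cdh5 (VE-cadherin), Pecam1, Esam and Cldn5 sit at the contacts between endothelial cells, and Emcn (endomucin) is a sialomucin of their surface. In the limb bud, a vascular network is in place while the mesenchyme condenses into cartilage, and vessels retreat from the condensations.

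The promoters of the members were read for the core letters of ETS-family sites, since ETS factors such as Erg and Fli1 act on many endothelial promoters. RefSeq promoter windows on GRCm38.p6, taken as the 250 bases before the RefSeq start, were matched for 7 of the 10 genes. The letters AGGAAG or CGGAAG, on either strand, occurred in 4 of the 7. Over all 32851 windows of the same length, AGGAAG occurred in 29.5%, CGGAAG in 13.6% and either in 39.2%. The 4 windows that hold them are given 5′ to 3′ on the strand of the gene, with the matches in capitals, because 3 of them belong to genes with an unadjusted p under 0.05 described further on. They lie at chr4:118489850-118490099, minus strand (Tie1), chr3:137340828-137341077, plus strand (Emcn), chr2:32646345-32646594, plus strand (Eng), and chr5:147726012-147726261, minus strand (Flt1).
Tie1: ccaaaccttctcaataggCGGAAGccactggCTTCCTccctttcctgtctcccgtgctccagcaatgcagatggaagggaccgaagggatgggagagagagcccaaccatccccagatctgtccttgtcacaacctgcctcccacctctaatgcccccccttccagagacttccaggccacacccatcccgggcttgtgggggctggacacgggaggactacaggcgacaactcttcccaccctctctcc
Emcn: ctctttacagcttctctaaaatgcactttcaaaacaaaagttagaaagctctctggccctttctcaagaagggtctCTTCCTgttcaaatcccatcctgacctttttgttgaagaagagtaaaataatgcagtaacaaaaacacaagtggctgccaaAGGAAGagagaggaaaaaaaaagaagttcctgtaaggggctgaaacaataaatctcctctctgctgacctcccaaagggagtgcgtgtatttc
Eng: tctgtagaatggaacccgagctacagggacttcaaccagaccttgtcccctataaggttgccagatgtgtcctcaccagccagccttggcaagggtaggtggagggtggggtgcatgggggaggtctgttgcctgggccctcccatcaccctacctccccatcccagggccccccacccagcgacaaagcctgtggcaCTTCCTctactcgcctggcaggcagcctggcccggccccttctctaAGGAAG
Flt1: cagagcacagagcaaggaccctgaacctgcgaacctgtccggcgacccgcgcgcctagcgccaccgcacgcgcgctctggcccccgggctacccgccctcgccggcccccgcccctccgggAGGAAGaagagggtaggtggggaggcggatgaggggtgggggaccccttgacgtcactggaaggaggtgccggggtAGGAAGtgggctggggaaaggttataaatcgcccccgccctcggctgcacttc
The Tie1 window held 1 match of each kind, beginning 232 and 219 bases before the RefSeq start. The GENCODE start of Tie1, at 118490061, lies inside this window, so most of the window is within the gene by that annotation. Both Tie1 matches lie before either start. The GENCODE start of Emcn, at 137341067, also falls inside its window, near the end. Emcn, Eng and Flt1 each held 2 of AGGAAG, and in Eng the second ended at the last base before the start. Neither set of letters was in the windows of Kdr, Tek and Cldn5. A match is a run of letters and not a measured binding site.

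The WT libraries held 40931953 (replicate 1) and 69466572 (replicate 2) counts, and the Prx-cKO libraries held 28892215 and 54452957 in the same order. The members together took 7898, 13546, 7540 and 13306 of these counts, so each library sampled every member with at least 268 reads. Replicates of a genotype differed by more than sampling noise, since the chi-square over its degrees of freedom was 131 for WT and 44.6 for Prx-cKO. Levels are given as CPM, a gene's count relative to the scaled total of its library. Impdh2 itself stood at 260 and 272 CPM in WT and 170 and 199 CPM in Prx-cKO. Its log2 fold change was −0.53 (SE 0.155), with an edgeR quasi-likelihood p of 0.0178 and a Benjamini-Hochberg adjusted p of 0.443. Haemoglobin transcripts, a sign of blood in the tissue, took 0.533% and 0.385% of the counts in WT and 0.463% and 0.371% in Prx-cKO. Xist and Ddx3y counts put 1 library of each sex in each genotype. Xist gave 92566 and 114 counts in WT and 10 and 139968 in Prx-cKO, and Ddx3y gave 0 and 4579 in WT and 1152 and 0 in Prx-cKO. Replicate 1 was thus female in WT and male in Prx-cKO, and replicate 2 the reverse.

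Every member was present in each forelimb library, which by itself does not show which cells held its RNA. Levels between genes were compared per kilobase of exon. In WT, Cldn5 was highest at 9.14 ± 0.850 CPM per kb (SD, n = 2), next to Cdh5 at 8.55 ± 0.379, and their spreads overlapped. Tie1 (4.66 CPM per kb), Esam (4.61) and Eng (4.54) followed and did not differ beyond their spread. Pecam1 (3.70) stood above Kdr (3.12), and Emcn (2.18 ± 0.302) and Tek (1.93 ± 0.637) overlapped. Flt1 was lowest at 0.900 ± 0.152 CPM per kb. In Prx-cKO, Cldn5 (15.7 CPM per kb) and Cdh5 (11.6) again led and Flt1 (0.967) was last, and Eng (9.79 and 6.69 CPM per kb in replicates 1 and 2) and Tie1 (7.36 and 7.12) did not differ beyond their spread.

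The comparison of genotypes asked how the vessel genes of the limb stand when Impdh2 is targeted in progenitors of the surrounding mesenchyme. How far the mesenchyme lost Impdh2 was not measured apart from the rest of the limb. The mean level of each of the 10 members was higher in Prx-cKO than in WT, by 1.08-fold (Flt1) to 1.82-fold (Eng). None passed the test over all genes: edgeR called 0 of 19987 genes (0%) at an adjusted p under 0.05, and its smallest adjusted p was 0.118. At an unadjusted p under 0.05, 5 members were higher (Cldn5, Tie1, Eng, Cdh5 and Emcn) and 0 lower, where 5.87% of the genes tested were higher and 4.61% lower, 2095 genes in all. Both Prx-cKO libraries lay above both WT libraries for 9 members, all but Flt1. The same held for 22.2% of all genes tested, and the reverse order for 21.0%. The median log2 fold change of the members was 0.40, against −0.03 over all genes, of which 47.2% were above 0. DESeq2, the other count model run, called 201 genes higher (1.01%) and 192 lower (0.961%), with 0 of the members among them. CPM are shares of a library. In RNA from whole limbs, more endothelial cells, more of these RNAs in each cell and less RNA from other cells cannot be told apart.

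**Figure D1:**
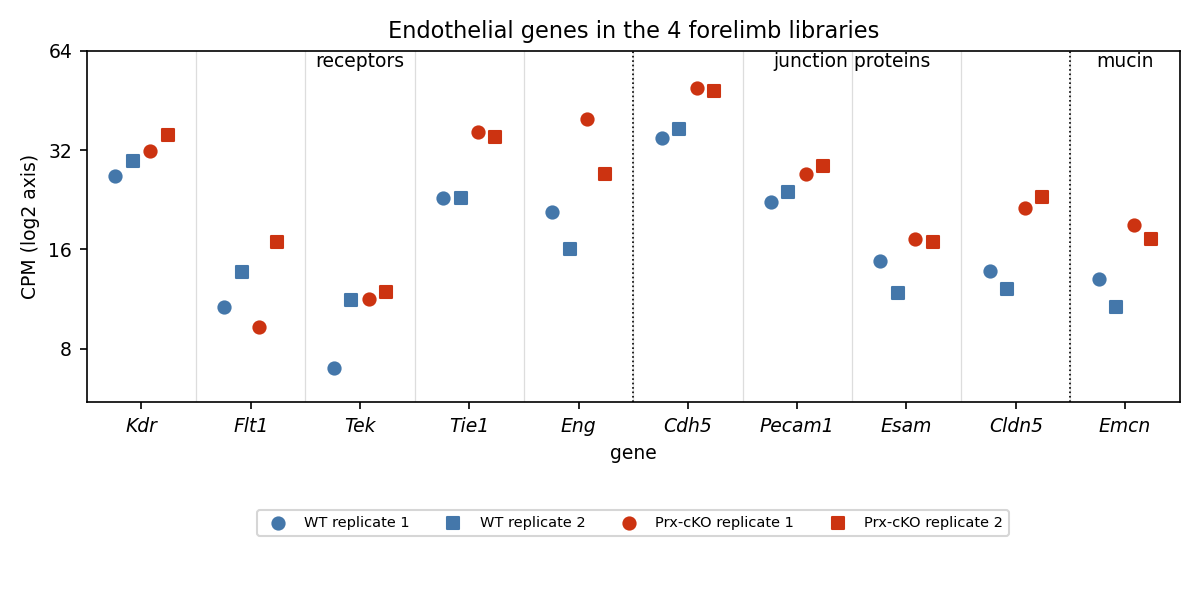
Level of each gene in CPM (log2 axis) in the 4 forelimb libraries, blue for WT and red for Prx-cKO, circles for replicate 1 and squares for replicate 2. The red points lie above the blue points for every gene but Flt1, by little for Tek (11.2 against 11.3 CPM) and most widely for Cldn5 and Tie1.

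Among the receptors, Tie1 (chr4:118471191-118490061, minus strand, GRCm38) had the tightest replicates. It stood at 22.9 and 22.9 CPM in the WT libraries and at 36.2 and 35.0 CPM in the Prx-cKO libraries. The groups did not overlap, and the difference was many times the spread within either group. Its log2 fold change was 0.64 (SE 0.162, 95% confidence interval 0.22 to 1.05), with an edgeR p of 0.0102 and an adjusted p of 0.416; DESeq2 gave an adjusted p of 0.0844.

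Tek (chr4:94739289-94874976, plus strand), the angiopoietin receptor that pairs with Tie1, read 6.97 and 11.2 CPM in WT and 11.3 and 11.9 CPM in Prx-cKO. WT replicate 1 was low, whereas WT replicate 2 was within 1.01-fold of the lower Prx-cKO library, and under other scalings of the libraries the groups overlapped. Its log2 fold change of 0.34 (SE 0.301) had an edgeR adjusted p of 0.724, and leaving out WT replicate 1 gave 0.015 while leaving out WT replicate 2 gave 0.745. Per kilobase, Tie1 stood at 3.15 and 1.96 times Tek in WT and at 3.06 and 2.82 times Tek in Prx-cKO, which overlap.

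Eng (chr2:32646595-32682669, plus strand) gave the largest fold of the 10 together with wide replicates. It measured 20.7 and 16.02 CPM in WT and 39.6 and 27.1 CPM in Prx-cKO. Replicate 1 was the higher library in both genotypes, and the groups did not overlap. The log2 fold change was 0.86 (SE 0.264, interval 0.19 to 1.53), with an edgeR p of 0.0211 and an adjusted p of 0.445. Leaving out Prx-cKO replicate 1 gave 0.57, and leaving out replicate 2 of that genotype gave 1.11. Of its exonic bases, 61 overlap Fpgs on the opposite strand, and whether the counting used strand is not given in the sources used here.

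Kdr (chr5:75932827-75978458, minus strand), the main signalling receptor for VEGF, measured 26.8 and 29.6 CPM in WT and 31.9 and 35.5 CPM in Prx-cKO. The order was the same as for most members, but the step from the upper WT to the lower Prx-cKO library was 1.08-fold. Its log2 fold change of 0.26 (SE 0.172) had an interval from −0.18 to 0.69 and an edgeR adjusted p of 0.639.

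Flt1 (chr5:147561604-147726011, minus strand) was the exception. Its WT libraries gave 10.7 and 13.6 CPM and its Prx-cKO libraries 9.32 and 16.8 CPM, so that the Prx-cKO libraries held both the lowest and the highest value. A log2 fold change of 0.11 (SE 0.343) had an edgeR adjusted p of 0.928, and its sign turned to −0.38 without Prx-cKO replicate 2 and to −0.08 without WT replicate 1. Per kilobase, Flt1 was 0.267 and 0.308 of Kdr in WT and 0.196 and 0.317 of Kdr in Prx-cKO, with no order between genotypes.

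Cldn5 (chr16:18776847-18778262, plus strand), the claudin of endothelial tight junctions, had the smallest p of the members. It measured 13.8 and 12.1 CPM in WT and 21.4 and 23.1 CPM in Prx-cKO. The gap between the groups was 1.55-fold, wider than for any other member. The log2 fold change was 0.78 (SE 0.196, interval 0.29 to 1.28), with an edgeR p of 0.0095 and an adjusted p of 0.414. The DESeq2 adjusted p of 0.0611 was the lowest reached by a member under any of the 11 alternatives run.

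Cdh5 (chr8:104101625-104144511, plus strand), the cadherin of endothelial adherens junctions, measured 34.8 and 37.0 CPM in WT and 49.3 and 48.4 CPM in Prx-cKO. The replicates of each genotype lay close together and the groups apart. Its log2 fold change was 0.44 (SE 0.153), with an edgeR p of 0.0321 and an adjusted p of 0.46. Over the 4 libraries, the profile of Cdh5 lay nearest to the mean profile of the members, at a root mean square distance of 0.0374 on the log2 scale, and those of Eng (0.315) and Flt1 (0.369) lay farthest.

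Pecam1 (chr11:106654217-106750628, minus strand), an immunoglobulin-type adhesion molecule that blood cells also carry, stood at 22.3 and 23.8 CPM in WT and 27.1 and 28.7 CPM in Prx-cKO. Esam (chr9:37528078-37538319, plus strand), another adhesion molecule of endothelium and platelets, stood at 14.7 and 11.8 CPM in WT and 17.2 and 16.8 CPM in Prx-cKO. Both had separate groups with a small gap. The log2 fold change of Pecam1 was 0.27 (SE 0.171) and that of Esam 0.37 (SE 0.216), with edgeR adjusted p of 0.616 and 0.597.

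Emcn (chr3:137341067-137432185, plus strand), the surface sialomucin, which is most abundant on capillaries and veins, measured 13.0 and 10.7 CPM in WT and 19.0 and 17.2 CPM in Prx-cKO. The groups were separated by 1.33-fold. The log2 fold change was 0.61 (SE 0.216, interval 0.07 to 1.16), with an edgeR p of 0.0344 and an adjusted p of 0.466.

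**Figure D2:**
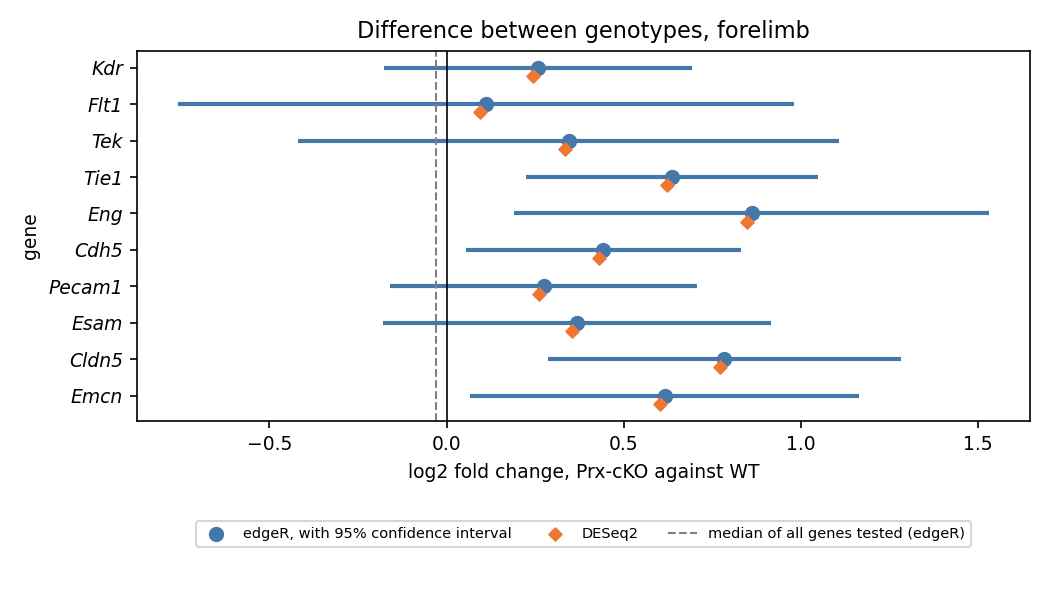
Log2 fold change of each gene, Prx-cKO against WT, by edgeR (blue, with the 95% confidence interval as a bar) and DESeq2 (orange). The intervals of Tie1, Eng, Cdh5, Cldn5 and Emcn lie above 0 before adjustment for the 19987 genes tested, and those of Kdr, Flt1, Tek, Pecam1 and Esam span 0.

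Summed over the members, WT libraries held 186.6 and 188.7 CPM and Prx-cKO libraries 262.3 and 260.5 CPM, a ratio of means of 1.39. Without Eng, the sums were 165.9 and 172.7 CPM against 222.6 and 233.4 CPM. Library by library, 9 or 10 of the members were higher in the Prx-cKO library in each of the 4 pairings of a Prx-cKO with a WT library, with median ratios from 1.36 to 1.44. Between replicates of 1 genotype, 6 of 10 were higher in WT replicate 2 than in WT replicate 1, and 5 of 10 in Prx-cKO replicate 2 than in replicate 1, with median ratios of 1.03 and 1.02. Leaving out 1 library at a time, the median log2 fold change of the members ran from 0.42 to 0.49. Each of these fits leaves 1 library in a genotype, which is assumed to vary like the libraries of the other genotype.

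Further genes of the endothelium had, as a list, a smaller median difference. Of 26 other pan-endothelial genes, all tested, 22 were higher and 4 lower, 2 had an unadjusted p under 0.05 and both were higher, and the median log2 fold change was 0.29, or 0.187 without Prx-cKO replicate 2. Their summed level was 380 and 360.9 CPM in WT and 444.5 and 455.4 CPM in Prx-cKO. The members thus stood at 49.1% and 52.3% of that sum in WT and at 59% and 57.2% in Prx-cKO. Plvap, the protein of the diaphragms of fenestrated capillaries, measured 31.3 and 27.0 CPM in WT and 46.7 and 45.0 CPM in Prx-cKO (log2 fold change 0.66, SE 0.167; edgeR p of 0.0104, adjusted 0.416). Rasip1, which is needed for the opening of vessel lumens, gave 0.69 (SE 0.188; edgeR p of 0.0134), and its exons overlap those of Izumo1 on the same strand. The secreted factor Egfl7 was at 42.7 and 23.5 CPM in WT and 57.04 and 48.2 CPM in Prx-cKO. Its log2 fold change was 0.67 (SE 0.314), with an edgeR p of 0.0832 and an adjusted p of 0.524. Egfl7 exons overlap genes on both strands, with 264 bases shared with Gm20532 on the same strand. Clec14a, a lectin of the endothelial surface, went the other way, at 12.7 and 16.7 CPM in WT and 10.7 and 11.3 CPM in Prx-cKO (log2 fold change −0.41, SE 0.238; edgeR adjusted p of 0.593). S1pr1 and Cd93 overlapped between genotypes, with log2 fold changes of 0.04 and 0.08; they were named for these small values after they were seen.

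Of 16 VEGF and angiopoietin ligands and co-receptors, 11 were higher and 5 lower, with 2 in each direction at an unadjusted p under 0.05 and a median of 0.18. The ligand Vegfd, which in the mouse signals through Flt4, stood at 13.2 and 8.97 CPM in WT and 23.2 and 27.3 CPM in Prx-cKO. Its log2 fold change was 1.20 (SE 0.262), with an edgeR adjusted p of 0.399 and a DESeq2 adjusted p of 0.010, so that the call depends on the tool. Flt4 was at 12.6 and 12.7 CPM in WT and 15.03 and 15.6 CPM in Prx-cKO (log2 fold change 0.28, SE 0.197). Vegfa, the ligand of Kdr and Flt1, overlapped, at 106 and 74.0 CPM in WT and 78.8 and 62.1 CPM in Prx-cKO. Aplnr, the apelin receptor, was at 29.9 and 29.7 CPM in WT and 43.6 and 50.0 CPM in Prx-cKO (log2 fold change 0.65, SE 0.165; edgeR p of 0.00991).

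The ligands of Tek differed in direction. Angpt1, the activating ligand made by perivascular and mesenchymal cells, measured 15.5 and 17.0 CPM in WT and 10.6 and 9.40 CPM in Prx-cKO, with a log2 fold change of −0.70 (SE 0.212), an edgeR p of 0.020 and an adjusted p of 0.444. An antisense gene shares 737 of its exonic bases. Angpt2, a context-dependent antagonist made by endothelium, was at 2.98 and 1.78 CPM in WT and 3.23 and 4.85 CPM in Prx-cKO (edgeR p of 0.109). Per kilobase, Angpt2 was 0.271 and 0.148 of Angpt1 in WT and 0.43 and 0.729 in Prx-cKO, with no overlap. Angptl2, a related secreted protein, was at 73.4 and 79.7 CPM in WT and 55.4 and 55.0 CPM in Prx-cKO (log2 fold change −0.47, SE 0.146).

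Endothelial transcription factors split: of 19 tested, 12 were higher and 7 lower, with 2 higher and 3 lower at an unadjusted p under 0.05. Their median of 0.25 turned to −0.085 without WT replicate 1. Lmo2, an adaptor in transcription complexes of blood and endothelial cells, was at 15.3 and 16.4 CPM in WT and 42.3 and 45.6 CPM in Prx-cKO, with a log2 fold change of 1.47 (SE 0.170), an edgeR adjusted p of 0.32 and a DESeq2 adjusted p of 2.48e-08. The ETS factor Erg, which cartilage precursors also make, was at 16.5 and 19.3 CPM in WT and 9.63 and 8.71 CPM in Prx-cKO, with a log2 fold change of −0.97 (SE 0.217), an edgeR adjusted p of 0.40 and a DESeq2 adjusted p of 0.015. Its relative Fli1 was at 44.0 and 56.6 CPM in WT and 29.6 and 36.4 CPM in Prx-cKO (log2 fold change −0.61, SE 0.209; edgeR p of 0.0318). The forkhead factor Foxc1, which mesenchyme also makes, was at 56.6 and 63.8 CPM in WT and 29.2 and 27.6 CPM in Prx-cKO (edgeR adjusted p of 0.332, DESeq2 adjusted p of 5.22e-05). Klf2, a factor that answers to blood flow, was at 5.20 and 3.39 CPM in WT and 8.17 and 9.04 CPM in Prx-cKO (log2 fold change 1.02, SE 0.319; edgeR p of 0.0223). Sox18 was at 16.6 and 12.0 CPM in WT and 25.6 and 18.5 CPM in Prx-cKO. Which limb cells held these RNAs was not measured, for the higher factors such as Lmo2 as for the lower ones.

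Of 14 arterial, Notch and venous genes, 8 were higher and 6 lower, with a median of 0.13 that turned to −0.119 without WT replicate 1 and to −0.061 without Prx-cKO replicate 2. The Notch ligand Jag2 was at 58.0 and 63.1 CPM in WT and 88.0 and 75.8 CPM in Prx-cKO (edgeR p of 0.0395), and the limb cells that held its RNA were not identified. The venous factor Nr2f2, which limb mesenchyme also makes, was at 87.1 and 104.8 CPM in WT and 66.9 and 67.8 CPM in Prx-cKO (edgeR p of 0.0233). Of 5 lymphatic genes, Lyve1 (0.283 and 0.585 CPM in WT, 1.81 and 1.53 CPM in Prx-cKO) and Ccl21a (0.496 and 0.181 CPM in WT, 2.78 and 1.25 CPM in Prx-cKO) were higher, at edgeR p of 0.014 and 0.0136. Lyve1 is also a macrophage gene, and both were near the lower end of what the libraries measured. Prox1, the factor that sets lymphatic identity, had a log2 fold change of −0.12 (SE 0.308), and its sign depended on the libraries used.

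Partners of the members in signalling and at junctions were higher and lower in similar numbers. Of 10 endoglin and BMP signalling genes tested, 6 were higher and 4 lower, with 0 at an unadjusted p under 0.05 and a median of 0.03 (−0.069 to 0.055 without 1 library). Acvrl1, the receptor that works with endoglin, was at 10.1 and 7.77 CPM in WT and 10.7 and 8.26 CPM in Prx-cKO. The ligands Gdf2 and Bmp10 were too low to be tested. Of 12 junction partners, 6 were higher and 6 lower, with a median of −0.01 (−0.29 to 0.185 without 1 library). Jup (plakoglobin), which binds cadherins in many epithelia as well, was at 63.3 and 64.8 CPM in WT and 80.8 and 94.7 CPM in Prx-cKO (edgeR p of 0.0319). Of 15 hypoxia response genes, 9 were higher and 6 lower, 1 and 3 of them at an unadjusted p under 0.05. Their median of 0.20 turned to −0.046 without WT replicate 2.

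**Figure D3:**
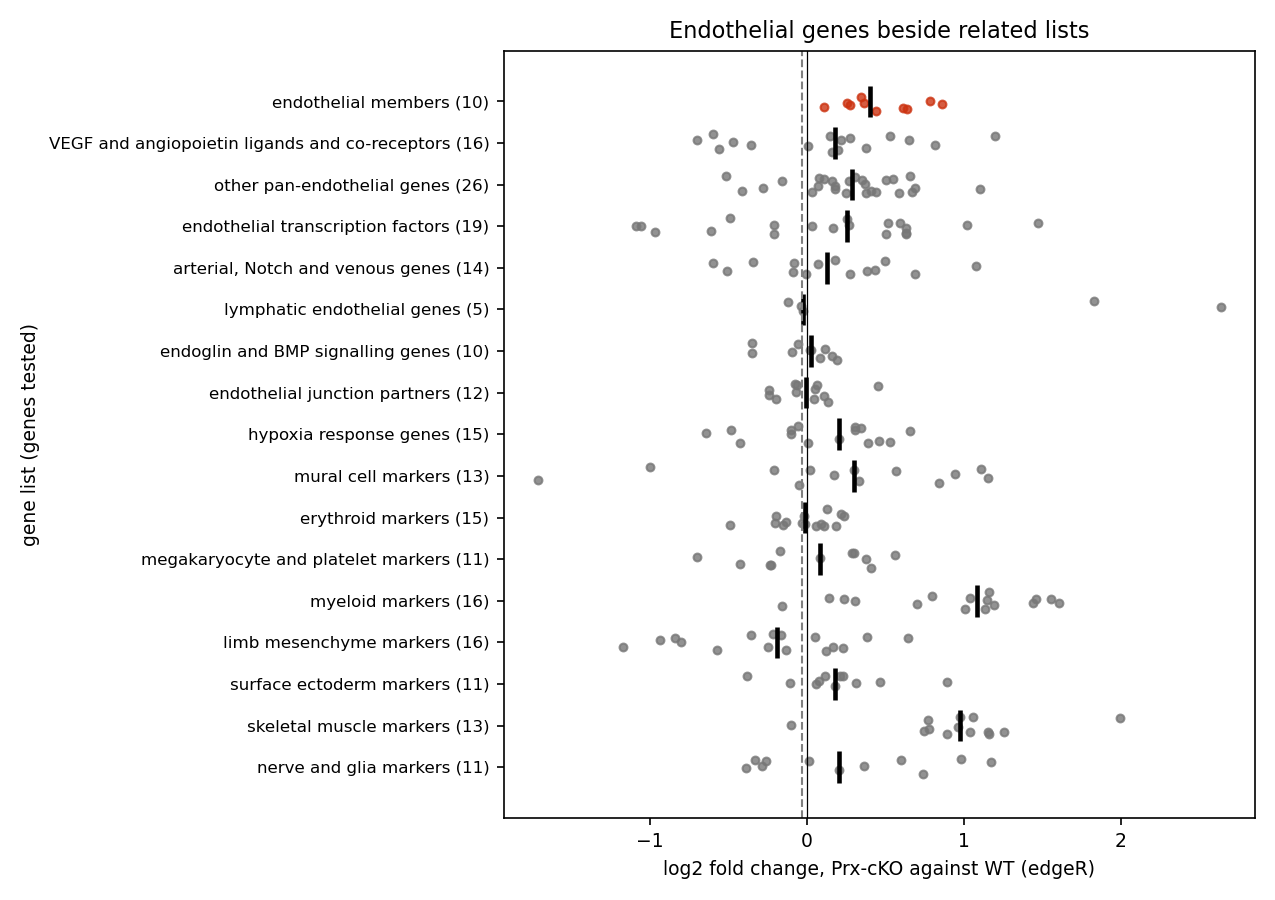
Gene lists side by side: each point is the log2 fold change of 1 gene tested, Prx-cKO against WT (edgeR), each short bar the median of its list, and the dashed line the median of all genes tested. The endothelial members (red) all lie above 0 with a median of 0.40, myeloid and muscle markers lie higher, and limb mesenchyme markers lie mostly below 0.

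Markers of other cells of the limb also differed in level between genotypes, and their part in the results for the members was not tested. Of 16 limb mesenchyme markers, 10 were lower and 6 higher, 5 and 1 of them at an unadjusted p under 0.05, and DESeq2 called 4 lower and 0 higher. Those 4 were Lhx9, Tbx5, Pdgfra and Prrx1, named after their values were seen, with log2 fold changes of −1.17, −0.93, −0.80 and −0.84 and DESeq2 adjusted p of 1.89e-06, 0.0020, 0.00255 and 0.037. The markers' summed level was 2263 and 2409 CPM in WT and 1729 and 1836 CPM in Prx-cKO. Set against this sum, the members stood at 8.25% and 7.83% in WT and at 15.2% and 14.2% in Prx-cKO, a ratio of means of 1.83 in place of 1.39. Without Lhx9, Tbx5, Pdgfra and Prrx1, the sums of the other markers overlap between genotypes. These 4 were picked because DESeq2 called them lower in the same data, so leaving them out was bound to narrow the difference. The overlap therefore does not show that lower levels were confined to them. Both Prx-cKO libraries lay below both WT libraries for 7 of the 16 markers and above them for 3. The shares over all genes tested were 21.0% and 22.2%. The ratio of 1.83 depends on which mesenchyme markers are summed. Of the 3 mesenchyme markers most abundant per kilobase over the 4 libraries, Prrx2 and Twist1 overlapped between genotypes, and Shox2 was at 199.5 and 205.2 CPM in WT and 183.1 and 165.8 CPM in Prx-cKO.

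Of 16 myeloid markers tested, 15 were higher and 1 lower, 10 of them higher at an unadjusted p under 0.05, and DESeq2 called 7 higher. Their sum was 71.58 and 70.92 CPM in WT and 153.1 and 140.9 CPM in Prx-cKO, a larger ratio (2.06) than that of the members. The complement gene C1qb of tissue macrophages stood at 9.17 and 8.49 CPM in WT and 24.9 and 26.8 CPM in Prx-cKO. Of 13 skeletal muscle markers tested, 12 were higher and 1 lower, with sums of 421.5 and 406.4 CPM in WT and 1126 and 530.4 CPM in Prx-cKO. DESeq2 called 2 of them higher and 0 lower. These were Pax3 and Myod1, named for these calls, with DESeq2 adjusted p of 6.52e-08 and 0.00101. The median of the muscle list was 0.97, and 0.36 without Prx-cKO replicate 1, while the members' median without that library was 0.46.

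Of 13 mural cell markers tested, 9 were higher and 4 lower, with sums of 444.1 and 531 CPM in WT and 650.7 and 578.2 CPM in Prx-cKO. The separation of these sums rests on Acta2, smooth muscle actin, at 89.5 and 93.0 CPM in WT and 237 and 115 CPM in Prx-cKO: without it they were 354.6 and 438 against 413.5 and 463.4 CPM, which overlap. Des, which is also in the skeletal muscle list, was at 12.6 and 14.04 CPM in WT and 38.7 and 20.8 CPM in Prx-cKO. The median log2 fold change of the list was 0.30, and single genes differed in both directions. Cspg4 (NG2), a pericyte gene that mesenchyme and cartilage also make, was at 18.4 and 25.0 CPM in WT and 7.06 and 6.24 CPM in Prx-cKO. It was the 1 mural marker that DESeq2 called lower (adjusted p of 6.71e-06), with 0 called higher. Rgs5, a pericyte gene, was at 2.17 and 1.69 CPM in WT and 3.69 and 3.19 CPM in Prx-cKO. The mural genes named here were singled out after their values were seen. Of 15 erythroid markers, 7 were higher and 8 lower, with summed levels of 5247 and 3862 CPM in WT and 4756 and 4072 CPM in Prx-cKO that overlap. Of 11 platelet markers, 6 were higher and 5 lower, with sums of 47.65 and 42.2 CPM in WT and 51.65 and 45.57 CPM in Prx-cKO that also overlap. Surface ectoderm (9 of 11 higher) and nerve and glia markers (7 of 11 tested higher) had medians of 0.18 and 0.20. DESeq2 called 1 ectoderm marker higher and 0 lower, and 0 nerve and glia markers. The ectoderm marker, named for this call, was Fgf8 (edgeR log2 fold change 0.89, DESeq2 adjusted p of 0.0139). Without Prx-cKO replicate 2 the medians of these 2 lists were 0.082 and 0.051, and without WT replicate 2 the nerve and glia median turned to −0.111. No marker of these lists was at 0 in every forelimb library.

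**Figure D4:**
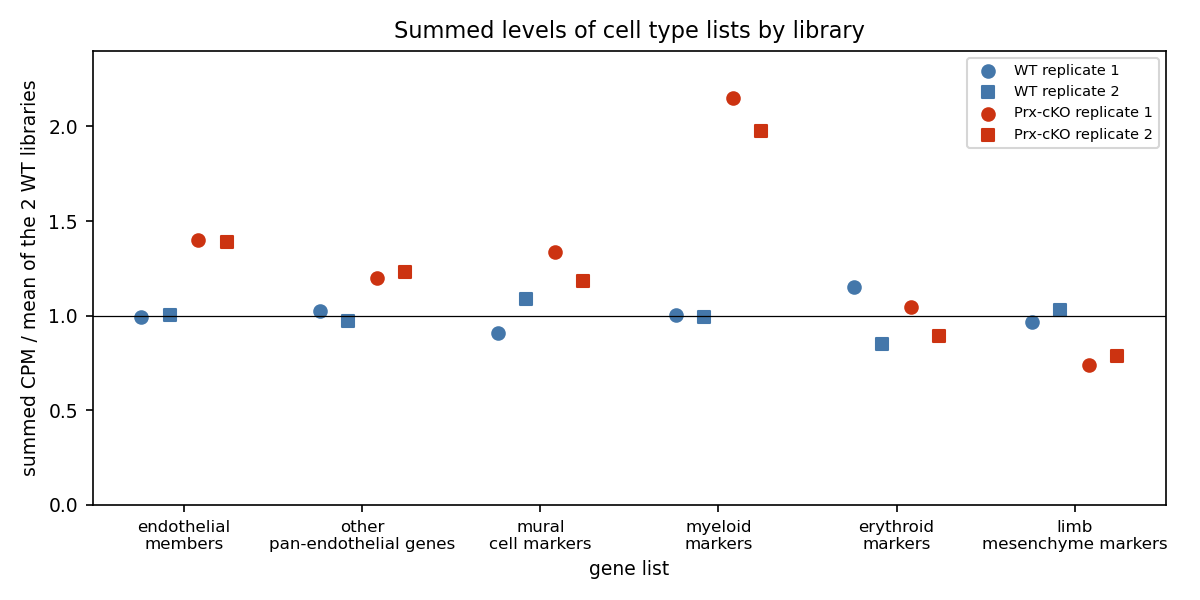
Summed CPM of 6 gene lists in each forelimb library, divided by the mean of the 2 WT libraries (linear axis from 0), with blue for WT, red for Prx-cKO, circles for replicate 1 and squares for replicate 2. The endothelial members sit near 1.39 in both Prx-cKO libraries, the myeloid markers near 2.06, the other pan-endothelial genes near 1.21, the limb mesenchyme markers near 0.763, and the erythroid markers on both sides of 1. The mesenchyme sums overlap without Lhx9, Tbx5, Pdgfra and Prrx1, which were picked because DESeq2 called them lower in these data.

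The members were also measured in the cultures, which are not limb macrophages. These libraries were scaled apart from the forelimb, so levels across the 2 tissues are set side by side and not tested. In the 8 culture libraries, 7 of the members (Tek, Cdh5, Emcn, Tie1, Flt1, Esam and Cldn5) stayed under 1 CPM in every library. Cldn5 reached at most 1 count and Tek at most 4. Pecam1 ran from 0.37 to 5.44 CPM and Kdr from 3.30 to 17.3 CPM in the cultures. Eng was the member best measured there, at 19.1 to 52.9 CPM with a mean of 36.8 CPM, above its 18.4 ± 3.30 CPM in WT forelimb. Eng is known on activated macrophages as well as on endothelium. The myeloid markers summed to between 23900 and 51720 CPM in the cultures, and their forelimb sum was 0.205% and 0.203% of the culture mean in WT and 0.439% and 0.404% in Prx-cKO.

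**Figure D5:**
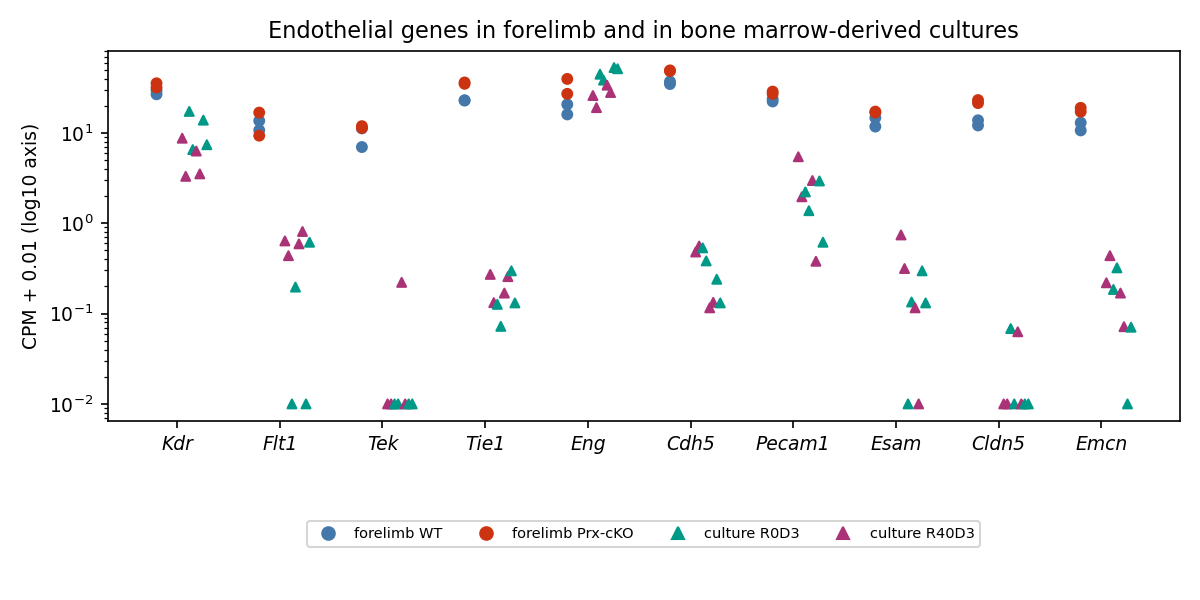
Level of each gene (CPM + 0.01, log10 axis) in the 4 forelimb libraries (circles) and the 8 culture libraries (triangles), scaled separately. Eng is as high in the cultures as in the forelimb, Kdr and Pecam1 are measured at lower levels, and the other 7 genes lie under 1 CPM in the cultures.

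Genes outside every list were ranked by the distance of their centred log2 profile over the 4 libraries from the mean profile of the members, among 11919 genes whose mean level reached 5 CPM. The nearest were Ubb (distance 0.00996), Nmral1 (0.0117), Ybx1 (0.0122), Pop1 (0.0157) and Rmnd5b (0.0159). Ybx1, an abundant RNA-binding protein, stood at 826 and 828 CPM in WT and 1131 and 1182 CPM in Prx-cKO. Flt1, the farthest member, lay at 0.369, and 8025 of the 11919 genes lay no farther than that. A gene with equal levels in all 4 libraries also lies within this distance. The count therefore does not show how common the closeness of the named genes is.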

How the data were processed

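RNA was extracted with TRIzol and sequenced from an mRNA library kit, per the labels' protocols. The authors deposited unnormalised counts of reads for each Ensembl gene. The submitters' processing notes name FastQC 0.11.2, Trimmomatic 0.36, HISAT2 2.1.0, DESeq2 1.12.4 and GRCm38; how reads were counted, on which annotation and with which strand setting is not given in the sources used here. The 4 forelimb libraries were fitted alone with edgeR 4.0.16 (R 4.3.3): filterByExpr, TMM scaling, quasi-likelihood test with legacy = FALSE, two-sided, Benjamini-Hochberg over all 19987 genes, called at 0.05. CPM use the scaled library sizes; 8 culture libraries (16009146 to 19221865 counts) were scaled apart and not tested. DESeq2 1.42.0 was an alternative, with other scalings, no filter, a replicate block and leaving out each library. Gene positions and exonic lengths are from GENCODE M21 (GRCm38). The edgeR fit was tested on simulated data with log2 fold changes of at least 1 in size. It recovered 55 of 193 changed genes that were tested, with 1 false call. The log2 fold changes of the members were smaller than those set there, so the absence of a call says little about changes of their size. The members and lists were chosen with earlier results of these data known. From each other list the text names genes among the 5 with the smallest p, or with at least 5 CPM and groups that do not overlap; from myeloid and mesenchyme markers the 3 most abundant per kilobase; exceptions are said to be so or illustrate a pathway (Vegfa, Angpt2, Acvrl1, Gdf2, Bmp10). The replicate numbers were not taken to pair the libraries.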

Additional observations from a re-analysis of the deposited data

How the results depend on the processing

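Of 110 values of the members under 11 alternatives, 108 kept their direction and side of the threshold; 2, both of Flt1, reversed. Counts of genes called moved from 0 to 393 with the DESeq2 test, and without 1 library they ran from 0 to 603 (603 without WT replicate 1, 104 without WT replicate 2, 0 without either Prx-cKO library); the cause was not tested. With library size alone, 3 members had an unadjusted edgeR p under 0.05 (10.6% of all genes tested), against 5 (10.5%) in the main fit. The members' median was 0.307 with library size alone, a scaling that puts the median of all genes at −0.129, 0.371 with no filter on low counts, and 0.422 to 0.491 without 1 library. Without 1 library, log2 fold changes ran from −0.383 to 0.474 for Flt1, −0.387 to 0.182 for Prox1, −0.102 to 0.069 for Pdpn, −0.304 to 0.286 for Reln, −0.12 to 0.566 for Id2, −0.545 to 0.102 for Tjp1, −0.543 to 0.209 for Cgnl1, −0.307 to 0.031 for Prrx2 and −0.011 to 0.343 for Twist1. With the replicate block, 0 genes were called, 5 members had an unadjusted edgeR p under 0.05 (13.5% of all genes tested) and the members' median was 0.41. With 2 numbers the pairing (r = 0.261) cannot be settled, and libraries of the same number were of opposite sex. Leaving out 1 library also makes the sexes uneven between genotypes. The number of libraries, 2 a genotype, limits the precision, as the members' confidence intervals show.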
